A study of Mus musculus with 11 samples.

Results

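A group of 10 genes of the colonocyte, the absorptive cell of the colon lining, was followed through RNA libraries of sorted colonic macrophages. They are Car1, Car4, Slc26a3, Aqp8, Krt20, Lgals4, Lgals6, Sprr2a2, Pigr and Cdx1, and each was found by its symbol, giving 10 of the 23282 entries in the count files. All 10 passed the filter on low counts, which kept 6987 entries for testing. The members were chosen by measured values, from earlier results of these libraries: Lgals6 and Sprr2a2 had been called higher at day 39 among libraries labelled knockout, Lgals6 also lower in knockout at day 0, and epithelial genes as a set had stood higher at day 39. The differences between the days, and between genotypes at day 0, are therefore given as descriptions.

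The cells were sorted as CD45+ CD11b+ Ly6G- Ly6C- MHCII+ CD64+ from the colon of mice labelled wild type (WT) or Csf1r-EP4-/- (knockout, KO), in which EP4, a prostaglandin E2 receptor encoded by Ptger4, is the named deletion. Csf1r is a gene of the macrophage lineage, and the labels do not describe the allele further. All labels state 2.5% dextran sodium sulphate (DSS), which injures the colon lining, in drinking water over 5 days, and the titles give day 0 or day 39. KO had 3 libraries on each day, and WT had 2 at day 0 and 3 at day 39. Nothing in the labels says whether replicates were separate animals, so p-values measure only the spread between these libraries. Age, sex and background strain are not stated.

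Library totals ran from 4003299 to 14207919 counts, with the deepest library in KO day 0. Levels are given as counts and as CPM (counts scaled to a common library total after TMM normalization). Values of 3 counts or fewer are treated as not detected, a floor of 0.196 to 0.911 CPM depending on the library, which covers counting error only. Ptger4 went against the labels: libraries labelled KO held 1350, 0 and 890 counts of it at day 0 and 1, 8 and 4501 at day 39, while those labelled WT held 0 and 0, then 1481, 152 and 7286. Replicates 1 and 3 of KO day 0 and replicate 3 of KO day 39, with at least 890 counts each, are the KO libraries in doubt, and main results are also given without them. The 0 counts of both WT day 0 libraries go against their label too, but these are all the libraries of that group, so no comparison with it can leave them out. The 12 macrophage markers examined summed to 4497 to 18531 CPM per library. C1qa, C1qb, C1qc and Csf1r had at least 1329 counts in every library, but others of the 12 were not detected in some. Cd68 had 0 counts in KO day 0 replicate 2 and 1 in WT day 0 replicate 2. Adgre1 had 1 in WT day 0 replicate 1 and 3 in KO day 39 replicate 1, and Cd14 had 3 in KO day 39 replicate 3. Of the sort markers, H2-Aa (MHCII) had at least 26244 counts throughout, whereas Ptprc (CD45), Itgam (CD11b) and Fcgr1 (CD64) were each at or under the floor in 3 to 5 libraries. In bulk RNA, fewer cells of a type and less RNA per cell cannot be told apart.

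Colonocytes take up salt and water from the gut content. Carbonic anhydrases supply bicarbonate, which the exchanger encoded by Slc26a3 trades for luminal chloride, and a water channel encoded by Aqp8 sits in the same cells. As the cells move from crypt to surface they mature and express Krt20. They also carry IgA to the lumen through the receptor encoded by Pigr, and make galectins and small proline-rich proteins at the surface. Macrophages of the colon lie directly beneath this epithelium.

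Some members belong to families of close copies, and the sequences of 1 such pair are shown because their counts are read side by side further on. The windows are the 300 bases around the RefSeq start of each gene in mouse build GRCm38.p6. Sprr2a2 is at chr3:92250397-92250696 and its relative Sprr2a3 at chr3:92285054-92285353, both on the plus strand. The windows share a run of 272 bases without a mismatch, shifted by 28 bases, and capitals mark the 28 bases of each that lie outside the shared run.
Sprr2a2: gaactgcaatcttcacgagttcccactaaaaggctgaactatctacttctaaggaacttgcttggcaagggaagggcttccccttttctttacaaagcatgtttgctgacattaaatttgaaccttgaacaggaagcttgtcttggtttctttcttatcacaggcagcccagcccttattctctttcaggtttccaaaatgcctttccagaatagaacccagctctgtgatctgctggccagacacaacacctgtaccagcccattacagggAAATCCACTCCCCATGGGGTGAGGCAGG
Sprr2a3: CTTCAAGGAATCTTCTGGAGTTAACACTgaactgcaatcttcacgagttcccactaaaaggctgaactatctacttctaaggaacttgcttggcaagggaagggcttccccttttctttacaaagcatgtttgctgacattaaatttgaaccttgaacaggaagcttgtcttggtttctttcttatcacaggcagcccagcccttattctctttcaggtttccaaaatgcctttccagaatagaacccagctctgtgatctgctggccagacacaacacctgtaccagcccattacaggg
The window of a further relative, Sprr2a1, was identical to that of Sprr2a2 over all 300 bases. The likeness extended to the 3′ end of the transcript, the part that the library kit counts. Over the last 300 bases of the longest coding transcript in GENCODE release M21, Sprr2a2 and Sprr2a1 were identical, and Sprr2a2 and Sprr2a3 shared 298 bases. How the authors assigned reads that fit several copies is not given in the sources used here, so counts of each copy are uncertain.

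Most member counts were missing at day 0 and present at day 39. Of the 50 member values in the 5 day 0 libraries, 11 (22%) reached 100 counts, and of the 60 values in the 6 day 39 libraries, 39 (65%) did. Over all tested genes the shares were 35.5% at day 0 and 36.8% at day 39. By group the numbers were 6 of 30 (KO) and 5 of 20 (WT) at day 0, and 22 of 30 (KO) and 17 of 30 (WT) at day 39. Per library, 3, 2 and 1 (KO) and 1 and 4 (WT) of the members were at that level at day 0, and 7, 6 and 9 (KO) and 7, 6 and 4 (WT) at day 39. WT day 0 replicate 2 and WT day 39 replicate 3 thus met at 4 members. The deepest library, KO day 0 replicate 3, had the highest share of tested genes at 100 counts (52.3%) and 1 member there.

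**Figure D1:**
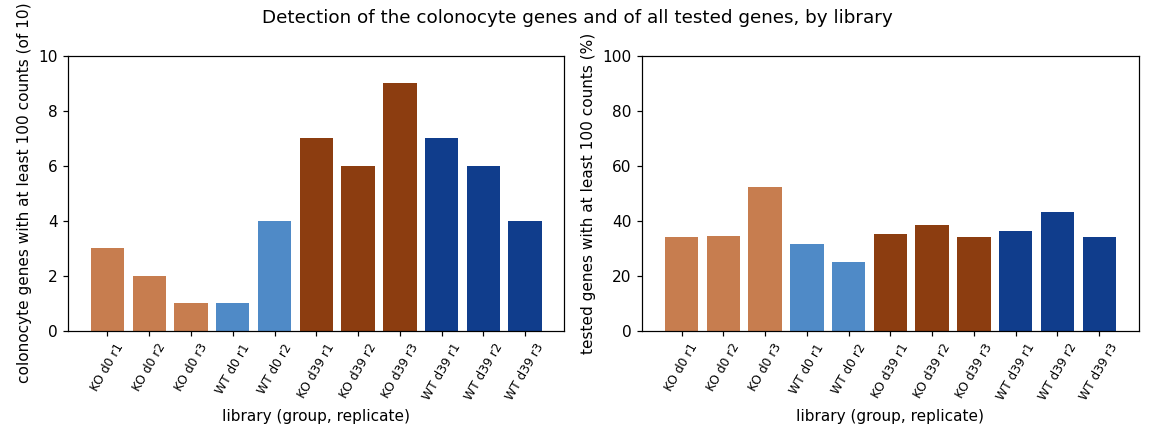
Left, number of the 10 colonocyte genes with at least 100 counts in each library; right, percent of the 6987 tested genes with at least 100 counts. Bars are single libraries, named by genotype, day (d) and replicate (r), and coloured by group. The left bars stand at 1 to 4 for day 0 and 4 to 9 for day 39, while the right bars run from 24.9% to 52.3% with no such step.

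The summed level of the 10 members was 786, 84.1 and 11.3 CPM in the KO day 0 libraries and 404 and 2104 CPM in WT day 0. At day 39 it was 5342, 4580 and 10674 CPM in KO and 7688, 3201 and 2664 CPM in WT. Every day 39 library stood above every day 0 library, and the ratio of the day means was 8.39. Leaving out WT day 0 replicate 2 raised the ratio to 17.7, and leaving out the 3 KO libraries in doubt lowered it to 5.43. With upper-quartile scaling the ratio was 2.07.

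Markers of other cell types differed between the days to different degrees. The 8 general epithelial markers examined, such as Krt8, Krt19 and Cdh1, summed per library to 45.5 to 1114 CPM (KO) and 137 to 1015 (WT) at day 0, and to 2408 to 3952 (KO) and 1109 to 2864 (WT) at day 39, so the days met at their edges. Cdh1 did not follow the sums. Its WT mean was 472 CPM ± 548 (SD, n = 2) at day 0 and 223 ± 47.1 (n = 3) at day 39, and its KO mean 398 ± 448 (n = 3) and 454 ± 294 (n = 3). The 7 goblet cell markers had group means of 380 CPM ± 135 (SD, n = 3) for KO and 691 ± 372 (n = 2) for WT at day 0, against 2606 ± 2184 (n = 3) for KO and 1069 ± 1240 (n = 3) for WT at day 39. The 9 skeletal muscle markers had a KO mean of 15692 CPM ± 11641 (SD, n = 3) at day 0 and 3181 ± 936 (n = 3) at day 39, and a WT mean of 5060 ± 3796 (n = 2) and 8106 ± 6156 (n = 3). Between the days edgeR called 2 of the 9 lower in KO, where 0.0286% of all tested genes were called lower, and 0 of 9 in WT, with 1 at an unadjusted p under 0.05. The 6 fibroblast markers had a KO mean of 14514 CPM ± 8872 (SD, n = 3) at day 0 and 7503 ± 2789 (n = 3) at day 39, and a WT mean of 9122 ± 8609 (n = 2) and 6864 ± 2455 (n = 3). KO day 0 replicates 2 and 3, the libraries with the lowest member sums, had the highest muscle sums, 24095 and 20576 CPM, and the highest fibroblast sums, 18479 and 20712 CPM. Group means of the 12 macrophage markers lay between 9150 and 10868 CPM, but the libraries within a group differed. KO day 0 had 9427 ± 7893 (SD, n = 3), from sums of 18531, 5254 and 4497 CPM. The sums of its replicates 2 and 3 were the lowest of all libraries. The part of these cell types in the member levels was not tested. None of the 8 general epithelial, 7 goblet or 12 macrophage markers passed the edgeR test between the days averaged over genotypes, with 5, 1 and 0 of them at an unadjusted p under 0.05, as were 19.2% of all tested genes.

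**Figure D2:**
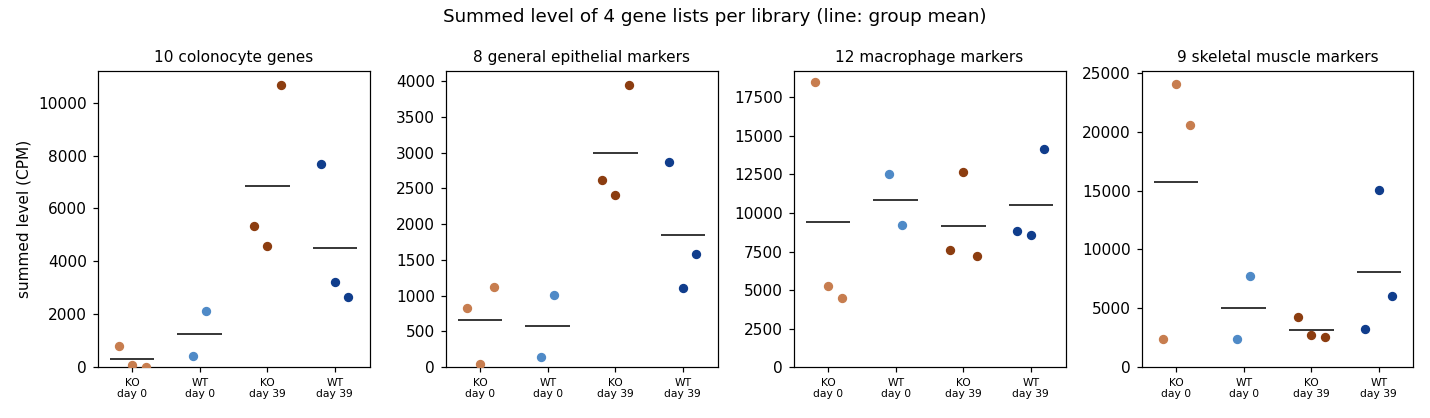
Summed CPM of the 10 colonocyte genes, 8 general epithelial markers, 12 macrophage markers and 9 skeletal muscle markers; points are libraries, lines are group means and each axis starts at 0. The colonocyte genes do not overlap between the days, with 2104 CPM the highest at day 0 and 2664 the lowest at day 39.

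The salt and water genes come first. Car1, a cytosolic carbonic anhydrase, had 2257, 0 and 0 counts (KO) and 87 and 3230 (WT) at day 0, and 543, 5712 and 8785 (KO) and 7361, 4422 and 1408 (WT) at day 39. Such lists give the replicates in the order of their numbers. It was present in all 6 day 39 libraries and in 3 of 5 at day 0, and the days overlapped. Its mean was 121 CPM ± 209 (SD, n = 3) for KO and 388 ± 527 (n = 2) for WT at day 0, against 1267 ± 1201 (n = 3) for KO and 1119 ± 999 (n = 3) for WT at day 39. Car4, a carbonic anhydrase anchored to the outer cell membrane, had 0 counts in all 5 day 0 libraries. Its day 39 counts were 2, 124 and 1925 (KO) and 1839, 764 and 3 (WT), so 1 library of each genotype was at or under the floor. Over the 6 day 39 libraries its mean of 213 CPM ± 271 (SD, n = 6) was at least 462-fold higher than the mean floor of the day 0 libraries, 0.461 CPM.

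Slc26a3, the chloride and bicarbonate exchanger of the apical membrane, also had 0 counts throughout day 0. At day 39 it had 290, 0 and 700 counts (KO) and 1519, 0 and 1 (WT). High and absent libraries thus occurred in both genotypes, and the mean of 123 CPM ± 183 (SD, n = 6) was at least 267-fold above the day 0 floor, and at least 120-fold without WT replicate 1. Aqp8 had 0 counts in all 5 day 0 libraries and, at day 39, 1089, 2 and 1018 (KO) and 181, 0 and 192 (WT). KO replicates 1 and 3 were above all WT libraries, while KO replicate 2 was under the floor. The mean over day 39 was 112 CPM ± 138 (SD, n = 6), at least 243-fold above that floor. Car4, Slc26a3 and Aqp8 were therefore alike in having no count at day 0, but the libraries that lacked them at day 39 were not the same: Slc26a3 and Aqp8 were both at 2 counts or fewer in KO replicate 2 and WT replicate 2, where Car4 had 124 and 764 counts.

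Krt20, the keratin of mature surface cells, had 0, 123 and 0 counts (KO) and 0 and 0 (WT) at day 0. At day 39 it had 1, 3531 and 2739 counts (KO) and 13, 2715 and 2 (WT). A single day 0 library held it, and at day 39 each genotype had at least 1 library above 2700 counts and 1 at or under 2. Cdx1, a homeobox transcription factor of the intestinal epithelium, had 0 counts in every KO library of day 0 and 0 and 1514 in the WT ones. Its day 39 counts were 830, 5 and 1333 (KO), and 0 in all 3 WT libraries. Cdx1 was the only member whose WT level was lower at day 39 than at day 0, and that rested on WT day 0 replicate 2. The ratio of its day means was 1.40. It was 0.605 without KO day 39 replicate 3 and at least 249.9 without WT day 0 replicate 2.

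Pigr, the receptor that carries IgA across the epithelium, had 2407, 1 and 14 counts (KO) and 0 and 1 (WT) at day 0. Its day 39 counts were 2715, 3176 and 5002 (KO) and 5114, 125 and 2406 (WT). All 6 day 39 libraries held it, but WT replicate 2 at 23.0 CPM lay below KO day 0 replicate 1 at 387 CPM, so the days overlapped. Within WT the mean of 701 CPM ± 779 (SD, n = 3) at day 39 was at least 1128-fold above the day 0 floor, and at least 442-fold without WT day 39 replicate 1. Its cargo comes from plasma cells, for which 9 markers were listed, 5 of them present in the files and 3 tested. None of these 3 passed between the days, averaged over genotypes (edgeR, 0 at an unadjusted p under 0.05). Jchain, which joins IgA units, had 0 counts in 8 of the 11 libraries. Xbp1, the most abundant of the 5, had 334, 0 and 20 counts (KO) and 369 and 0 (WT) at day 0. At day 39 it had 1610, 67 and 15 (KO) and 2749, 993 and 1085 (WT). The 5 summed to a KO mean of 42.7 CPM ± 37.8 (SD, n = 3) at day 0 and 336 ± 537 (n = 3) at day 39. The WT means were 318 ± 448 (n = 2) and 526 ± 301 (n = 3).

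The galectins bind sugars on the cell surface. Lgals6, a galectin with paired sugar-binding domains, had 0, 0 and 4 counts (KO) and 1 and 3813 (WT) at day 0. Its day 39 counts were 7833, 2047 and 2944 (KO) and 1063, 6843 and 1 (WT). Each WT group thus held a library with at least 3813 counts and a library with 1, while the KO libraries divided cleanly by day. Group means were 0.087 CPM ± 0.15 (SD, n = 3) for KO and 449 ± 635 (n = 2) for WT at day 0, against 1093 ± 838 (n = 3) for KO and 527 ± 654 (n = 3) for WT at day 39. In WT the ratio of day 39 to day 0 was 1.17. It was 0.587 without WT day 0 replicate 1, at least 984 without WT day 0 replicate 2 and 0.359 without WT day 39 replicate 2. Lgals4, its close relative, had 53, 0 and 23 counts (KO) and 7, 0 and 0 (WT) at day 39 and none at day 0. Lgals4 counts occurred in 3 libraries, all with at least 1063 counts of Lgals6, and made up 0.672%, 0.775% and 0.654% of the 2 genes' counts there. WT day 39 replicate 2 had 6843 counts of Lgals6 and 0 of Lgals4, so the share was not the same in every library. The pair shares sequence, so how reads were divided between them is uncertain.

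Sprr2a2 encodes a small proline-rich protein, a family known from the outer layer of skin and made by gut epithelium too. It was the only member above the floor in all 11 libraries. It had 230, 530 and 155 counts (KO) and 2176 and 370 (WT) at day 0, and 7299, 8580 and 12576 (KO) and 8229, 2537 and 8150 (WT) at day 39. The highest day 0 library, WT replicate 1 at 389 CPM, was just below the lowest day 39 library, WT replicate 2 at 467 CPM. With upper-quartile scaling the order of these values changed, to 549 at day 0 and 498 at day 39. Group means were 38.4 CPM ± 29.0 (SD, n = 3) for KO and 238 ± 213 (n = 2) for WT at day 0, against 2402 ± 1062 (n = 3) for KO and 1583 ± 1031 (n = 3) for WT at day 39, and the ratio of day means over all libraries was 16.9, or 39.4 without WT day 0 replicate 1.

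**Figure D3:**
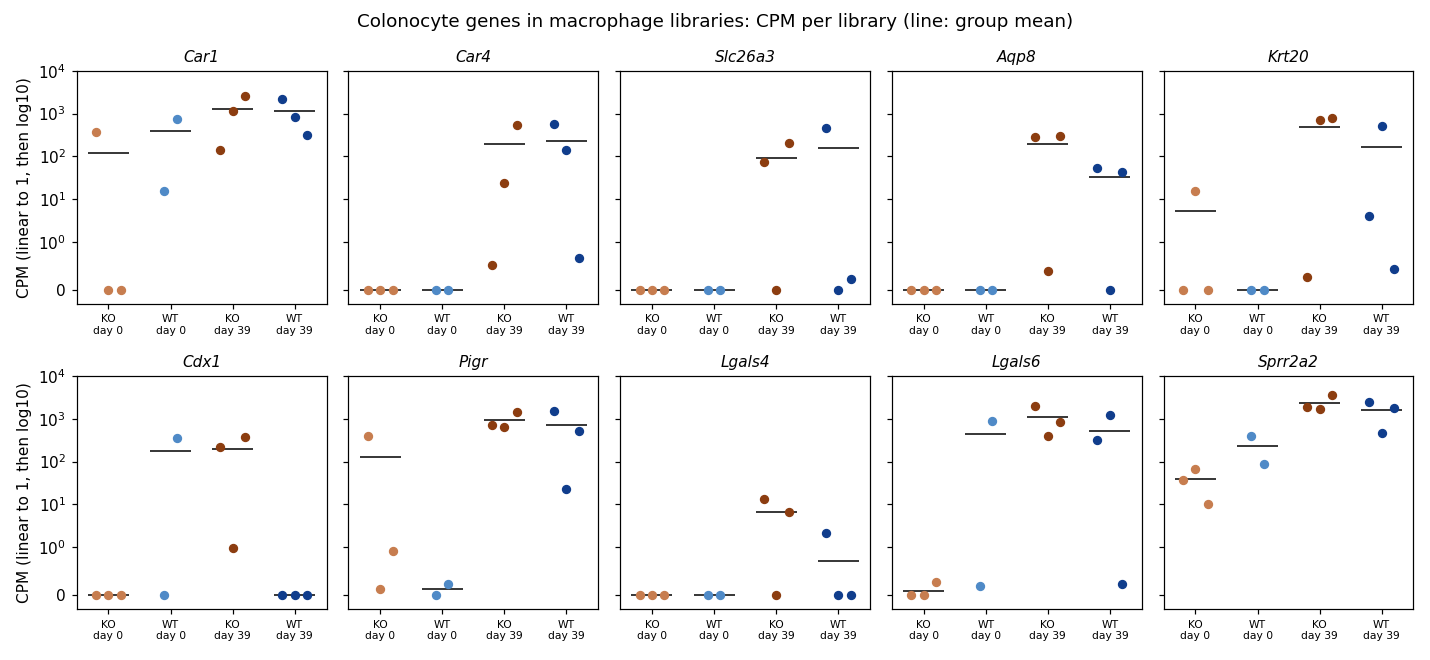
CPM of each of the 10 members in every library, 1 panel per gene, on an axis that is linear up to 1 CPM and logarithmic above it; points are libraries and lines are group means. Sprr2a2 is above 0 in all 11 libraries, whereas Car4, Slc26a3, Aqp8 and Lgals4 lie at 0 in all 5 day 0 libraries.

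The close copies of Sprr2a2 were counted as follows. Sprr2a3 had 100, 288 and 0 counts (KO) and 228 and 186 (WT) at day 0, and 4255, 793 and 4546 (KO) and 2430, 1037 and 2358 (WT) at day 39. Sprr2a1 had 0 counts in every library. Sprr2a2 made up 63.2% to 100% of the counts of Sprr2a2 and Sprr2a3, and its share was over 90% in KO day 0 replicate 3, WT day 0 replicate 1 and KO day 39 replicate 2. Sprr2b, whose last 300 transcript bases align to those of Sprr2a2 at 42.3% identity, had 59, 0 and 1 counts (KO) and 26 and 1 (WT) at day 0, and 496, 63 and 585 (KO) and 115, 243 and 194 (WT) at day 39. Sprr2a2, Sprr2a3 and Sprr2b were thus lower in CPM in each day 0 library than in any of day 39, though the margin of Sprr2b was small, 9.48 CPM at day 0 against 12.4 at day 39. With upper-quartile scaling Sprr2a2 and Sprr2a3 overlapped between the days, and Sprr2b had 9.83 against 10.7. Sprr1a, of another branch of the family, had its highest counts, 2052 and 4869, in KO day 0 replicates 2 and 3. Of 14 other family members listed, 5 were tested, 0 passed between the days averaged over genotypes and 1 had an unadjusted edgeR p under 0.05.

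**Figure D4:**
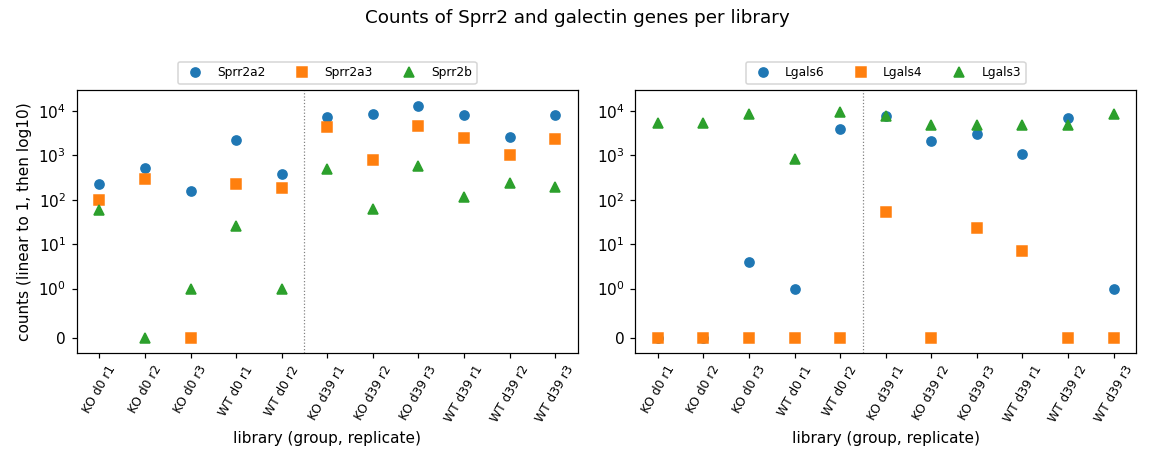
Counts of Sprr2a2, Sprr2a3 and Sprr2b (left) and of Lgals6, Lgals4 and Lgals3 (right) in each library, named by genotype, day (d) and replicate (r), on an axis that is linear up to 1 count and logarithmic above it; the dotted line divides day 0 from day 39. Lgals3, a galectin that macrophages make, stays between 814 and 9437 counts, while Lgals6 ranges from 0 to 7833.

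The members did not peak in the same library. In CPM, Car1, Aqp8, Krt20, Sprr2a2 and Cdx1 were highest in KO day 39 replicate 3, Car4, Slc26a3 and Pigr in WT day 39 replicate 1, and Lgals4 and Lgals6 in KO day 39 replicate 1. By unscaled counts the highest library was another one for Aqp8, Krt20, Cdx1 and Car4. KO day 39 replicate 3 is among the libraries whose Ptger4 counts go against the label. At day 0 the members that were present also differed by library: Car1, Pigr and Sprr2a2 in KO replicate 1, Sprr2a2 and Krt20 in KO replicate 2, Sprr2a2 with 4 counts of Lgals6 and 14 of Pigr in KO replicate 3, Sprr2a2 and Car1 in WT replicate 1, and Car1, Lgals6, Cdx1 and Sprr2a2 in WT replicate 2. A single library held between 28.9% of a member's summed CPM, for Sprr2a2, and 62.5%, for Slc26a3.

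Between the days averaged over genotypes, edgeR called 3 of the 10 members, Lgals6, Sprr2a2 and Pigr, all higher at day 39, where 0.258% of all tested genes were called higher, 0.0429% lower and 0.301% in either direction. In the KO libraries it called 2, Lgals6 and Sprr2a2, beside 0.129% of all tested genes higher and 0.157% either way. In the WT libraries edgeR called 0 of 10, where 0.0143% of all genes were called higher, and 5 members and 6.68% of all genes had an unadjusted p under 0.05. DESeq2 called 6 members there, 5 higher and Cdx1 lower, beside 16.9% of all genes, and limma-voom called 1 beside 2.42%. The averaged count was 0 without KO day 39 replicate 1 or KO day 39 replicate 3, where 4 and 11 of all genes were called, against 21 with all libraries. Without either WT day 0 library that group is 1 library. So is KO day 0 without the 3 KO libraries in doubt. Calls of these fits are not given here, and whether the calls above would hold in them is open. In such a fit the single library of the group is assumed to vary like the libraries of the other groups. These contrasts served in choosing the members, so nothing is read from the counts. The median fitted log2 fold change of the members, averaged over genotypes, was 7.15, against 0.76 over all tested genes. It stayed at 7.15 with the 4 members absent at day 0 set to their bounds, a setting that could move it little. The bounds of Car4, Slc26a3 and Aqp8, at 8.85, 8.06 and 7.92, still lay above it. Pigr, just above the median at 7.60, and Krt20 kept estimates fitted against WT day 0 libraries with 1 count or fewer. The median over all genes moved to 0.59 with DESeq2 size factors, 0.55 with library size alone and 0.18 with the upper quartile. It rose to 3.60 without the 3 KO libraries in doubt, where the member median was 8.30. Without WT day 0 replicate 1 it was 2.26 beside 6.80 for the members, and without WT day 0 replicate 2 it was 1.89 beside 9.26. Without KO day 0 replicate 3 it was 1.44 beside 7.45, and without WT day 39 replicate 1 it was 0.28 beside 6.87. In CPM as computed, with no floor applied, Car4 and Sprr2a2 did not overlap between the days over all 11 libraries, which held for 1.6% of tested genes. Within KO, 6 members were separated in this way with day 39 above (8.07% of tested genes), and within WT 4 were (12.7%). For Car4 and Aqp8 in KO, and for Car4 and Krt20 in WT, the lowest day 39 library had 2 or 3 counts, at or under the floor, and cannot be told apart from 0 at day 0, so of these members only Sprr2a2 was separated above the floor over all 11 libraries.

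At day 0 the genotypes were compared as a description. Lgals6 was the 1 member called by edgeR, lower in libraries labelled KO, where 0.0143% of tested genes were called lower. The groups overlapped, because WT replicate 1 had 1 count and KO replicate 3 had 4, and the difference rested on the 3813 counts of WT replicate 2. Sprr2a2 was separated, with both WT libraries, at 389 and 87.2 CPM, above the KO libraries, at 37.0, 68.1 and 10.1 CPM, as were 5.25% of tested genes. No member had KO above WT without overlap at day 0, against 6.73% of tested genes. Replicates 1 and 3 of KO day 0 are in doubt by their Ptger4 counts. The call of Lgals6 held without WT day 0 replicate 1 or WT day 39 replicate 3 and was lost without any 1 of the other 9 libraries, and without KO day 0 replicate 1 the 1 member called was Car1. Without the 3 KO libraries in doubt, which leaves 1 KO day 0 library and a spread taken from the other groups, no member was called at day 0 (edgeR, 2 members and 142 of all 8849 genes then tested at an unadjusted p under 0.05).

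The genotype contrast at day 39 asks whether loss of EP4 in these cells went with a different level of the colonocyte genes late in the course. The contrast itself did not choose the members, but its KO libraries entered the contrast over time that chose Lgals6 and Sprr2a2, so it is not independent of that choice and the values of these genes are descriptions. With edgeR no difference was detected for any member. Of the 10 members edgeR called 0, and it called 0.0286% of all tested genes, which is 2 genes, both skeletal muscle markers that were lower in libraries labelled KO, while 1 member and 7.28% of all genes had an unadjusted p under 0.05. DESeq2 called 1 member beside 7.94% of all genes, and limma-voom 0 beside 0.487%. The log2 fold change of libraries labelled KO over WT was 0.60 ± 1.11 (SE) for Sprr2a2, 1.05 ± 1.68 for Lgals6 and 0.40 ± 1.75 for Pigr (edgeR adjusted p = 1). For the salt and water genes it was 0.18 ± 1.36 for Car1, -0.27 ± 3.36 for Car4, -0.74 ± 3.69 for Slc26a3 and 2.57 ± 3.94 for Aqp8. Krt20 had 1.56 ± 2.97 and Lgals4 3.23 ± 3.64. All of these lie within 1 SE of 0, and SEs of this size leave room for differences of several fold either way. The sign for Car1, Car4, Slc26a3 and Pigr turned in some alternative fits. Without the 3 KO libraries in doubt edgeR again called 0 members, with 1 member and 136 of all 8849 genes then tested at an unadjusted p under 0.05.

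Cdx1 was the member with the unadjusted p under 0.05. Its 830, 5 and 1333 counts in KO day 39 all stood above the 0 counts of the WT day 39 libraries, a separation with KO above that 3.41% of tested genes shared. The opposite separation, WT above KO, was seen for 0 members and 3.99% of tested genes. The KO mean of 200 CPM ± 192 (SD, n = 3) was at least 283-fold higher than the WT floor (at least 153-fold without KO day 39 replicate 3), with an edgeR adjusted p of 0.491, which ranged from 0.460 to 0.691 when libraries were left out in turn. DESeq2 called it with an adjusted p of 1.6e-11 and a log2 fold change of 26.6, where edgeR had 13.2. Both estimates are fitted against WT libraries that were all at 0, so neither the size nor this p is a reliable measure. At day 0 the order was opposite, with 1514 counts in a WT library and 0 in all KO libraries. The interaction of day and genotype is built from differences that chose members, over time in KO and between genotypes at day 0, and is a description too. In it edgeR called 0 of the 10 members and 0% of all tested genes, with 3 members, Cdx1, Lgals6 and Pigr, and 14.4% of all genes at an unadjusted p under 0.05. DESeq2 called 2 members beside 13.4% of all genes, and limma-voom 0 beside 0.272%.

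**Figure D5:**
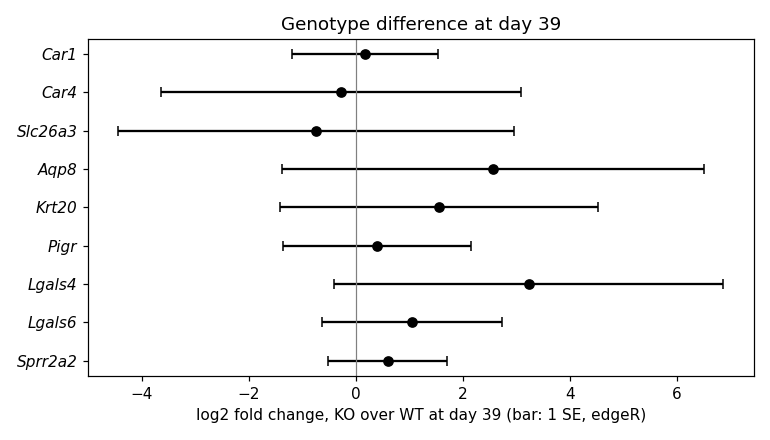
Log2 fold change of libraries labelled KO over those labelled WT at day 39 for 9 members, with bars of 1 SE from edgeR; Cdx1 is left out because its WT libraries were all at 0. Each bar crosses 0, and the estimates run from -0.74 for Slc26a3 to 3.23 for Lgals4.

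Other genes of the same cells were taken from lists by function, and their values between the days are descriptions as well. Among 15 brush border and surface genes, 12 were tested and all 12 had a fitted level higher at day 39 averaged over genotypes, with a median log2 fold change of 7.90; 0 passed the edgeR threshold and 8 had an unadjusted p under 0.05. Over all tested genes 59.8% were higher and 19.2% had an unadjusted p under 0.05, which is the share to set beside the unadjusted counts of the lists that follow as well. Phgr1, a small gut epithelial protein, had 8, 0 and 0 counts (KO) and 51 and 0 (WT) at day 0, and 2719, 756 and 8328 (KO) and 1069, 1281 and 1258 (WT) at day 39, without overlap of the days. Guca2a, the precursor of the gut hormone guanylin, had 51 counts in 1 day 0 library and 3 to 4321 counts at day 39. Ceacam1, an adhesion protein that leukocytes also make, was present at both days, with 1 to 4530 counts at day 0 and 1549 to 4439 at day 39.

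Of 15 genes of ion transport, 5 were tested and 0 passed between the days (edgeR, 2 at an unadjusted p under 0.05). Scnn1a, Scnn1b, Scnn1g and Slc9a3, the genes of the sodium channel and of a sodium and proton exchanger, had 0 counts in every library. Of 6 other aquaporins 2 were tested. Aqp3, the more abundant of them, had 0, 2923 and 1574 counts (KO) and 0 and 0 (WT) at day 0, and 1227, 0 and 0 (KO) and 0, 401 and 1 (WT) at day 39, so its KO mean was lower at day 39, at 106 CPM ± 183 (SD, n = 3), than at day 0, at 160 ± 194 (n = 3). Aqp4 had 0 counts throughout day 0, and 1, 213 and 426 (KO) and 178, 109 and 1 (WT) at day 39. Among 12 transcription factors of gut epithelium, 5 were tested and 0 passed (edgeR, 3 at an unadjusted p under 0.05). Cdx2, the partner of Cdx1, had 421 counts in KO day 39 replicate 3, 196 in WT day 39 replicate 2 and 4 or fewer elsewhere, so Cdx1 and Cdx2 were both abundant in 1 library only.

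The genes whose log2(CPM + 1) pattern over the 11 libraries was most like that of Lgals6 were BC005561 (Pearson correlation 0.876), Guca2a (0.873) and Cmpk1 (0.835). Those most like Sprr2a2 were Sf3b1 (0.969), Sprr2a3 (0.942) and Ubxn4 (0.939). These values are descriptions over 11 libraries that fall into 2 days, picked as the highest of all tested genes, and share depth and scaling. Sf3b1 encodes a splicing factor that all cells use, and Sprr2a3 shares sequence with Sprr2a2.

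Promoter windows from RefSeq were used for 7 of the 10 members (Car4, Slc26a3, Aqp8, Krt20, Lgals4, Sprr2a2 and Pigr). Windows on a single chromosome were left out for members by rule, though kept among all windows. A member without a window here, such as Cdx1, may therefore have one that was not searched. They were searched on both strands for the letters TTTATNG, a motif of CDX factors, since Cdx1 is itself a member. The letters of the TATA box were searched as TATAAA, wherever in the window they lay. A motif of HNF4 factors was searched as CAAAGTCC. A motif of GATA factors was searched as AGATAAG. The CDX motif was found in 3 of 7 windows (Car4, Aqp8 and Krt20) and in 10.9% of all 32851 windows of the same length. The TATA letters were found in 3 of 7 (Car4, Slc26a3 and Krt20) and in 13.6% of all windows. They began at -30 bases from the start in Slc26a3 and -29 in Krt20, but at 42 bases after it in Car4, which is not where a TATA box lies, and in Car4 and Krt20 its match overlaps that of the CDX motif. The HNF4 and GATA motifs were in 0 of 7, against 1.42% and 3.04% of all windows. The Aqp8 window at chr7:123462044-123462343, plus strand, and the Krt20 window at chr11:99438104-99438403, minus strand, are printed as examples of a match without and with that overlap, with the matched letters in capitals.
Aqp8: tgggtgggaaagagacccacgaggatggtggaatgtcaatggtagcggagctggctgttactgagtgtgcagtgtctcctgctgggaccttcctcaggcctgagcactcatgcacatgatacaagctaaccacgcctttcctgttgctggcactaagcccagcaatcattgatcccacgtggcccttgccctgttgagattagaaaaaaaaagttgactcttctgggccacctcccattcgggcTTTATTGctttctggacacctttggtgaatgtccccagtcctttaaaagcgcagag
Krt20: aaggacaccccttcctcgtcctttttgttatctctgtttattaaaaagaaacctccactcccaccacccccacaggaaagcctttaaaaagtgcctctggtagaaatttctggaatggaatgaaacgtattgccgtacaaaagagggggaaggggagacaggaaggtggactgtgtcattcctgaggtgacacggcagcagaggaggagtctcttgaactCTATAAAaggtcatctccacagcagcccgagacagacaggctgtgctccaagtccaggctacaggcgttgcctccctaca
A match is a description of the letters only.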

How the data were processed

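RNA was extracted with Trizol and made into Lexogen QuantSeq libraries, per the labels' protocols, a kit that reads near the 3′ end of poly(A) transcripts. The authors deposited whole-number counts per gene symbol, 1 file per library. The submitters' processing notes name Bowtie2, edgeR and the build hg19, a human assembly, without their roles, while the symbols are those of mouse. Annotation, strand setting, molecular identifiers and the handling of shared reads are not given in the sources used here. The titles give day 39 where file names give day 35, and number 2 where the file of 1 WT day 0 library has 3, and the titles were followed.

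The tests used edgeR 4.0.16 under R 4.3.3, with filterByExpr, TMM, robust dispersions, a quasi-likelihood fit with 1 coefficient per group over all 11 libraries, and Benjamini-Hochberg adjustment over the 6987 tested genes at 0.05, two-sided. The common biological coefficient of variation was 2.48. SE is the log2 fold change divided by the root of F. Folds against a group with 3 or fewer counts in every library use the floor of 3 counts per library. Alternatives used DESeq2 1.42.0, limma 3.58.1, other scalings and filters, and fewer libraries. Folds with libraries left out and the replicate block by file number were added after seeing the data.

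Members and lists were chosen with earlier results of these data known. All members are named. From each other list, the 3 genes with the highest mean CPM could be named, and for Lgals6 and Sprr2a2 the 3 tested genes of highest Pearson correlation. Other genes named, such as Cdx2, Csf1r, C1qb, Sprr2a1, Sprr2b and the sodium transport genes at 0 counts, were chosen after their values were seen. Sequences were aligned with Biopython 1.88.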

Additional observations from a re-analysis of the deposited data

How the results depend on the processing

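The number of members called depended on the fit, and the cause was not tested. As reported it was 1 for KO against WT at day 0, 0 at day 39, 0 for day 39 against day 0 in WT, 2 in KO, 3 averaged over genotypes and 0 in the interaction. DESeq2 gave 3, 1, 6, 6, 7 and 2 in the same order, and called 1241, 555, 1178, 1144, 1215 and 934 of all genes, against 1, 2, 1, 11, 21 and 0 in edgeR. Limma-voom gave 0, 0, 1, 3, 6 and 0 members, and called 2.55%, 0.487%, 2.42%, 2.96%, 2.89% and 0.272% of all genes. DESeq2 size factors in edgeR gave 1 in the interaction. At day 0, 0 members were called with library size only, no filter, mean counts of 10 or the replicate block. Each of these fits called 0 of all genes. The upper quartile also gave 0 members, and called 1 of all genes. With only the groups compared the number of members called was 0 as well, but there only 2 of the 10 members passed the filter and Lgals6 was not tested. Without the KO libraries with Ptger4 counts, KO day 0 is 1 library, as is WT day 0 when either of its libraries is left out, and that library is assumed to vary like the other groups. Averaged over genotypes, 0 members were called with library size only, where 9 of all genes were called, and with the upper quartile, where 51 were. The same held with no filter (2 of all genes), mean counts of 10 (3) and the replicate block (7). Without the KO libraries with Ptger4 counts only the size is given, a median log2 fold change of 8.30 for the members and 3.60 for all genes. Over time in KO, upper quartile and no filter gave 0 members and 0 of all genes, and a mean of at least 10 counts gave 1 member and 5 of all genes. Without the KO libraries with Ptger4 counts the median log2 fold change in KO was 11.2 for the members and 1.58 for all genes. Leaving out 1 library at a time gave 0 to 1 members at day 0, 1 to 3 over time in KO, 0 to 4 averaged over genotypes and 0 to 2 in the interaction. The averaged count was 0 without KO day 39 replicate 1 or 3, with 4 and 11 of all genes called. It was 4 without KO day 0 replicate 1, with 62 of all genes called.

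Whether the replicate numbers pair the libraries was not settled. Deviations from group means correlated at -0.014 to 0.070 over 15 same-numbered pairs. Their mean was 0.0097, against -0.0049 over the 30 other pairs. Of 11 libraries, 6 correlated best with their own number, and the share to be had by chance was not computed. The replicate block moved the count of all genes called averaged over genotypes from 21 to 7. With the file's number for the renumbered WT day 0 library, 0 of 15 pairs correlated above 0.1 and 7 of 11 libraries correlated best with their own number. The replicate block by file number, chosen after seeing the data, gave 0 members at day 0, 2 averaged over genotypes with 13 of all genes, and 0.30 for Slc26a3 at day 39.

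Between the days averaged over genotypes and between genotypes at day 39, the signs of 5 small fitted changes turned. Signs turned in other contrasts too. Over time in WT, 9 of 10 members were higher, but 7 with the upper quartile and 8 with no filter. In the interaction 6 of 10 were above 0, but 8 with DESeq2 and 9 with limma-voom. Averaged over genotypes, Cdx1 was at 0.082, and at -0.058 with DESeq2 size factors, -1.21 with upper quartile, -0.087 with no filter, -0.070 with a mean of at least 10 counts, -0.47 without the KO libraries with Ptger4 counts, and -0.58 to 6.55 with a library left out. At day 39, Car1 was at -0.038 with limma-voom, -0.091 with only the groups compared and -0.76 without the KO libraries with Ptger4 counts, where Pigr was at -0.047. Slc26a3 was at 2.03 with limma-voom and 0.18 with the replicate block. With a library left out the ranges were -0.83 to 1.09 for Car1, -4.23 to 1.38 for Car4, -2.05 to 9.35 for Slc26a3 and -0.12 to 1.60 for Pigr. The summed level of the members stayed higher at day 39 in each alternative run, at 2.07 to 17.7 times day 0. Counts of 10 or fewer beside counts above 1000 in replicates limit what these libraries can show.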
